A study of Mus musculus with 6 samples.

Results

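The mitochondrial ribosomal protein genes were taken as the mouse coding genes whose symbols begin with Mrpl or Mrps followed by a number. There were 78 of them among 21887 coding genes, 49 named for the large subunit (Mrpl) and 29 for the small subunit (Mrps). For each gene, open chromatin was read from peaks whose summit lay 1 kb or less from either annotated gene end, and from distal peaks, those more than 1 kb from every coding gene end for which the gene had the nearest end within 100 kb. Coordinates are those of mm10.

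The mitochondrial ribosome, or mitoribosome, translates the few messages of the mitochondrial genome, which encode core subunits of the respiratory chain and of ATP synthase. Its RNA is made inside the mitochondrion, whereas all its proteins are encoded in the nucleus, made in the cytosol and imported. Brown adipocytes are dense in mitochondria, and the nuclear genes for mitochondrial proteins are known targets of the transcription factors NRF1, GABPA and YY1.

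The lists came from ATAC-seq, in which a transposase cuts open DNA and adds sequencing adapters, of a mouse brown pre-adipocyte line labelled BAT. Day 0 cells were labelled wild type (WT) without differentiation, and day 1 cells were labelled only by 1 day of brown adipocyte differentiation; their genotype and the inducing agents are not named in the labels. Each day had 3 libraries, and whether these were independent cultures is not given, so a p-value here reflects variation among libraries that may be technical. The cells were measured in bulk, so a change in the mix of cells and a change in each cell cannot be told apart.

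Day 0 libraries held 11011889, 8127635 and 9160156 fragments and gave 55511, 41993 and 39211 peaks, whereas day 1 libraries held 4919755, 5603667 and 7302457 fragments and gave 20069, 23274 and 12556 peaks. Day 1 replicate 3 stood apart: over the 9136 regions with a peak in all 6 lists its median summit pileup was 1.78 per 1000000 fragments, against 2.62 to 3.94 in the other libraries. Depth therefore moved with day. Genes were counted in both ways, using the whole deposited lists and using equal lists cut to the 12556 peaks of lowest q in every library. Of 14 adipocyte-lineage markers, 9, 8 and 7 had a gene-end peak in the day 0 lists and 5, 5 and 3 in the day 1 lists, and in equal lists 4, 3 and 3 and then 3 in each. Over all coding genes the mean share in the deposited lists was 47.2% at day 0 and 37.6% at day 1. Ebf2, Pdgfrb, Cebpa and Fabp4 were among the markers with a peak, Pdgfra, Cd34, Dlk1, Prdm16 and Ucp1 had none in any list, and of the 9 endothelial, immune and muscle markers Kdr, Cd68 and Myod1 had at least 1. An accessible gene end does not measure expression.

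The first question was how many of these genes had an open gene end on each day. In the deposited lists 69, 68 and 69 of the 78 genes had a gene-end peak at day 0 and 62, 66 and 49 at day 1. The days did not overlap, but the fall was small in day 1 replicates 1 and 2 and largest in the library with the shortest list. As a share of the genes this was 88.0% ± 0.740 (SD, n = 3) at day 0 and 75.6% ± 11.4 (SD, n = 3) at day 1, beside 47.2% ± 2.84 and 37.6% ± 5.18 of all coding genes. The ratio of day 1 to day 0 was 0.859 for the mitochondrial ribosomal protein genes and 0.797 for all coding genes.

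With lists of equal length the direction was the opposite. Of the 78 genes, 38, 34 and 39 had a gene-end peak among the strongest 12556 at day 0 and 49, 54 and 49 at day 1. Every day 1 library was above every day 0 library, and the shares were 47.4% ± 3.39 and 65.0% ± 3.70 (SD, n = 3 each). All coding genes moved the same way, from 26.6% ± 0.719 to 32.4% ± 1.06, with a ratio of 1.22 against 1.37 for the mitochondrial ribosomal protein genes. Among genes with a gene-end peak in at least 1 deposited list, the shares were 51.4% and 70.4% for the mitochondrial ribosomal protein genes and 50.2% and 61.3% for all coding genes. A gene missing from an equal list ranked lower in that library and may still have signal.

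**Figure D1:**
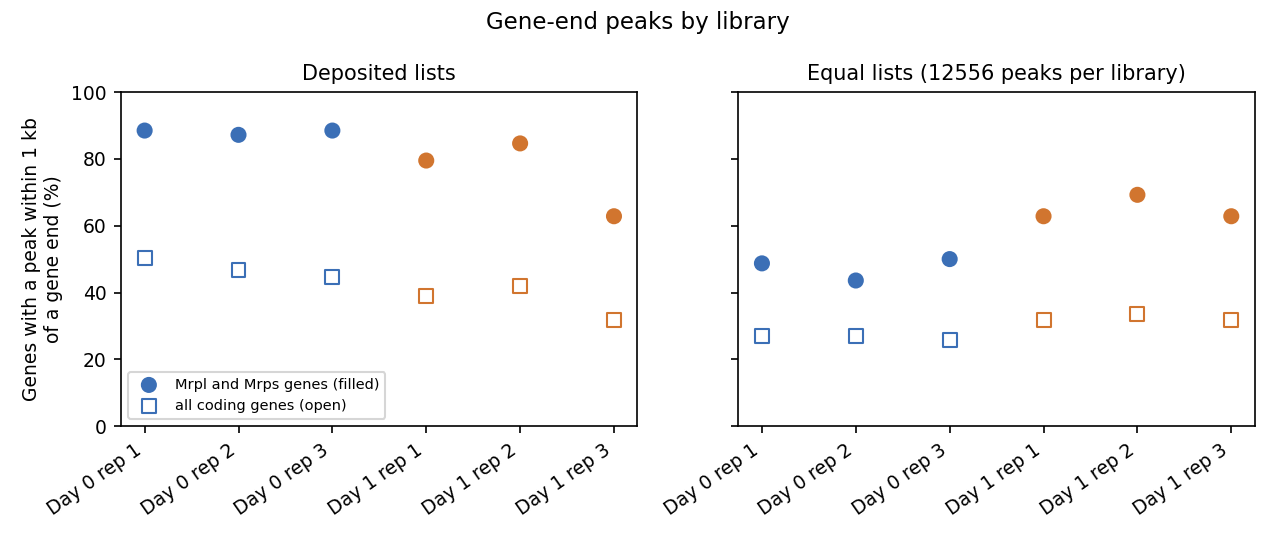
Percent of genes with a gene-end peak (vertical axis) in each library, in the deposited lists and in equal lists of 12556 peaks, for the 78 mitochondrial ribosomal protein genes and for all coding genes. Day 1 libraries lie below day 0 libraries in the deposited lists (62, 66 and 49 against 69, 68 and 69 of 78) and above them in the equal lists (49, 54 and 49 against 38, 34 and 39).

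The rise in the equal lists was wider for large-subunit than for small-subunit names. It went from 43.5% ± 3.12 to 65.3% ± 3.53 for Mrpl and from 54.0% ± 5.27 to 64.4% ± 8.68 for Mrps (SD, n = 3 each). The Mrps days overlapped, at 17, 14 and 16 genes at day 0 and 16, 21 and 19 at day 1. In the deposited lists the mean share fell from 89.1% to 76.2% for Mrpl and from 86.2% to 74.7% for Mrps. The difference between the subunits was not tested. Proteins of the mitoribosome that have a bacterial counterpart form its conserved core, and the others are additions of mitochondria. Of 28 Mrpl genes with a bacterial counterpart, 7, 7 and 10 were in the equal lists at day 0 and 18, 16 and 15 at day 1. Of 21 Mrpl genes without one, 14, 13 and 13 were present at day 0 and 15, 17 and 15 at day 1, and of 16 Mrps genes with one, 10, 8 and 10 and then 11, 13 and 12. In the deposited lists the conserved large-subunit genes gave 24, 23 and 24 at day 0 and 22, 23 and 15 at day 1. Mrps18a and Mrps30 carry small-subunit names but sit in the large subunit.

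Counted gene by gene, 46 of the 78 had a gene-end peak in all 6 deposited lists, against 29.3% of all coding genes, and 6 had none, against 47.1%. None went from all 3 day 0 libraries to no day 1 library (2.33% of all coding genes) and none did the reverse (0.0411%). More day 0 than day 1 libraries held a peak for 24 genes (20.2% of all coding genes) and fewer for 2 (1.56%). Many of these rested on a single list: 12 of the 24 had a peak in every list but that of day 1 replicate 3, a pattern seen in 5.80% of all coding genes. In the equal lists 28 genes had a peak in all 6 (19.4% of all coding genes), 15 in none (60.2%), 28 in more day 1 than day 0 libraries (14.5%) and 5 in more day 0 than day 1 libraries (3.67%).

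In the equal lists 4 genes had a gene-end peak in every day 1 library and in no day 0 library, against 1.84% of all coding genes, and no gene had the reverse, against 0.265%. They were Mrpl16, a core protein near the peptidyl transferase centre, Mrpl23, which lines the end of the exit tunnel, Mrpl36, a small zinc-binding protein of the large subunit, and Mrps6, a small-subunit protein. All 4 were open at day 0 as well: in the deposited lists Mrpl16, Mrpl36 and Mrps6 had peaks in 3 of 3 day 0 libraries and Mrpl23 in 2 of 3. Their change in the equal lists is thus one of rank. For Mrpl36 this change was at a region that also holds an end of Ndufs6. Its median summit lay more than 1 kb from the RefSeq transcription start of Mrpl36. The Mrps6 region also holds an end of Slc5a3. At these shared regions the change cannot be assigned to either gene.

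Genes with the fewest deposited peaks fell into distinct cases. Mrpl22, Mrpl24, Mrpl40, Mrps10, Mrps18b and Mrps23 had no gene-end peak in any list. Mrpl4 had one in day 0 replicate 1 alone, Mrpl18 in day 1 replicate 1 alone, Mrpl14 and Mrps2 in 2 lists, Mrps18a and Mrps31 in 3, and Mrpl3, Mrpl38 and Mrpl49 in 4.

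For some of these the annotated gene end did not coincide with a RefSeq transcription start. Counting summits 1 kb or less from a listed start as well, a step chosen after the values were seen, gave Mrpl18 a peak in 6 lists instead of 1, Mrps2 in 5 instead of 2 and Mrpl24 in 4 instead of 0. The Mrpl18 summits lay 96 to 198 bp from the listed start, with pileups of 87, 81 and 55 fragments at day 0 and 43, 44 and 35 at day 1. For Mrpl24 the pileups were 16, 18 and 13 at day 0, and 8 in day 1 replicate 2, with no peak in the other day 1 lists. With listed starts included, 73, 70 and 71 genes had a peak at day 0 and 63, 68 and 51 at day 1, and 48 genes were in all 6 lists.

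The other 5 genes without a peak each lay in a stretch of at least 50 kb that held no peak in any of the 6 lists. Mrps23 lay in chr11:87749806-88394832 (645 kb), together with 13 other coding genes such as the splicing factor gene Srsf1. Mrpl40 lay in chr16:18630044-19088074 (458 kb) with Hira, Ufd1 and Cdc45, Mrps10 in chr17:47065867-47428873 (363 kb), Mrpl22 in chr11:58107293-58301920 (195 kb) with Gemin5, and Mrps18b in chr17:35879820-35979500 (99.7 kb) with Ppp1r10 and Abcf1. Such stretches held 6.41% of the mitochondrial ribosomal protein genes and 26.6% of all coding genes. The deposited lists also carry peaks on 13 fix or alternate sequences of the assembly, and whether reads from these stretches were lost in mapping was not tested. A missing peak at these 5 genes was therefore not read as closed chromatin.

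The next question was where the peaks sat. Of 63 genes with both a gene-end region and a listed start, the median summit lay within 1 kb of a listed start in 59. In Mrps2 and Mrpl36 it lay near the annotated start side but farther from a listed start, and in Mrpl2 and Mrpl58 at the far end of the gene. The median summit was 45.5 bp upstream of the start (-45.5 bp in the direction of transcription), 43 summits lay within 100 bp of a start and 53 within 250 bp. Over all genes with a gene-end region, the width of the merged region ranged from 152 to 1415 bp with a median of 669 bp. The Mrpl2 region also held an end of Cul7, which encodes a ubiquitin ligase scaffold.

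**Figure D2:**
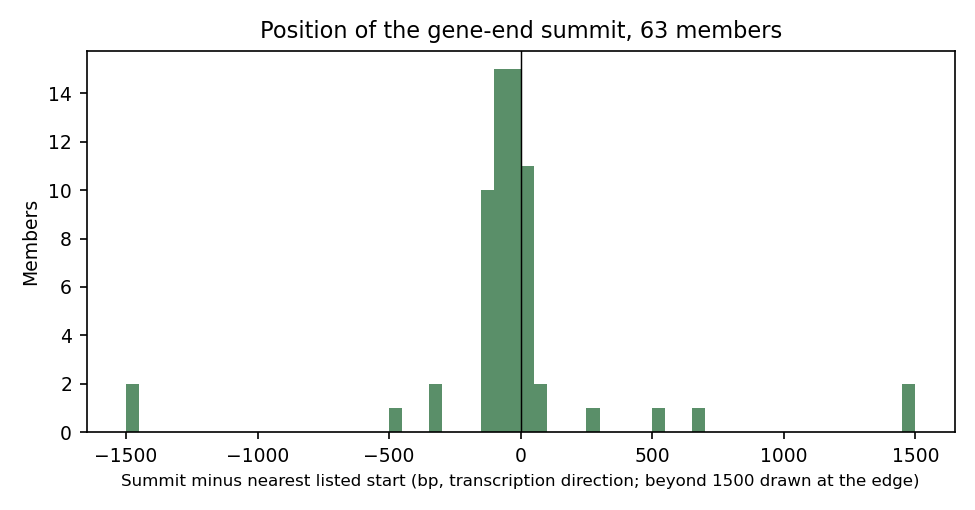
Number of mitochondrial ribosomal protein genes (vertical axis) by the distance of the gene-end summit from the nearest listed start, in bp in the direction of transcription, with values beyond 1500 bp drawn at the edge, for 63 genes. The distances pile up just upstream of the start, with a median of -45.5 bp and 43 genes within 100 bp.

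Many of these open regions belonged to more than a single gene. Of 72 genes with a gene-end region, 37 (51.4%) shared it with an end of another coding gene, against 3152 of 11577 (27.2%) coding genes with such a region. Reads at a shared region cannot be assigned to either gene. In 1 case both genes were mitochondrial ribosomal protein genes: Mrpl46 on the minus strand has its start side at chr7:78783089, Mrps11 begins on the plus strand at chr7:78783131, and 41 bases lie between them inside the shared region chr7:78782805-78783367. Other partners were also mitochondrial, a set picked out after the values were seen: Ndufb5 and Ndufs6, subunits of respiratory complex I, with Mrpl47 and Mrpl36, the mitochondrial DNA helicase gene Twnk with Mrpl43, and the mitochondrial seryl-tRNA synthetase gene Sars2 with Mrps12.

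The level of a region was taken as its summit pileup divided by the median of the library over the 9136 regions called in all 6 lists, so that a level of 1 is the typical shared region. Regions with a peak in all 6 lists and a gene-end summit of these genes in at least 1 of them numbered 48, with a median level of 0.958 and a range of 0.422 to 2.33, and 22 of them (45.8%) were above 1. All 5607 gene-end regions had a median of 1.09, and 58.0% were above 1. By library the median of the 48 regions was 0.953, 0.922 and 0.875 at day 0 and 0.833, 0.955 and 1.04 at day 1, below that of all gene-end regions (1.06 or more) in each library. The days overlapped.

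The strongest regions were those of Mrpl18, a large-subunit core protein, at 2.33 (shared with Tcp1, a subunit of the cytosolic chaperonin), Mrpl41 at 2.2 (shared with Pnpla7), Mrps14 at 2.07, Mrpl50 at 1.66 (shared with Zfp189), Mrps16 at 1.55 (shared with Cfap70) and Mrpl34 at 1.54 (shared with Abhd8). The strong Mrpl18 summits lie more than 1 kb from its annotated gene end, and its region entered through a second peak of day 1 replicate 1 that merged with it. Of these 6 only the Mrps14 region, at chr1:160194883-160195497, held no end of another coding gene. Its levels were 2.14, 2.5 and 2.12 at day 0, then 2.06, 1.82 and 1.77 at day 1. All day 1 values were below all day 0 values, and the difference did not pass the test (log2 day 1 over day 0 of -0.26, SE 0.16, adjusted p = 0.294 in limma). The weakest regions in all 6 lists were those of Mrps35 (0.422), Mrpl20 (0.464), Mrpl36 at its listed start (0.475), Mrpl16 (0.494), Mrpl53 (0.507) and Mrps6 and Mrpl23 (0.565 each).

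**Figure D3:**
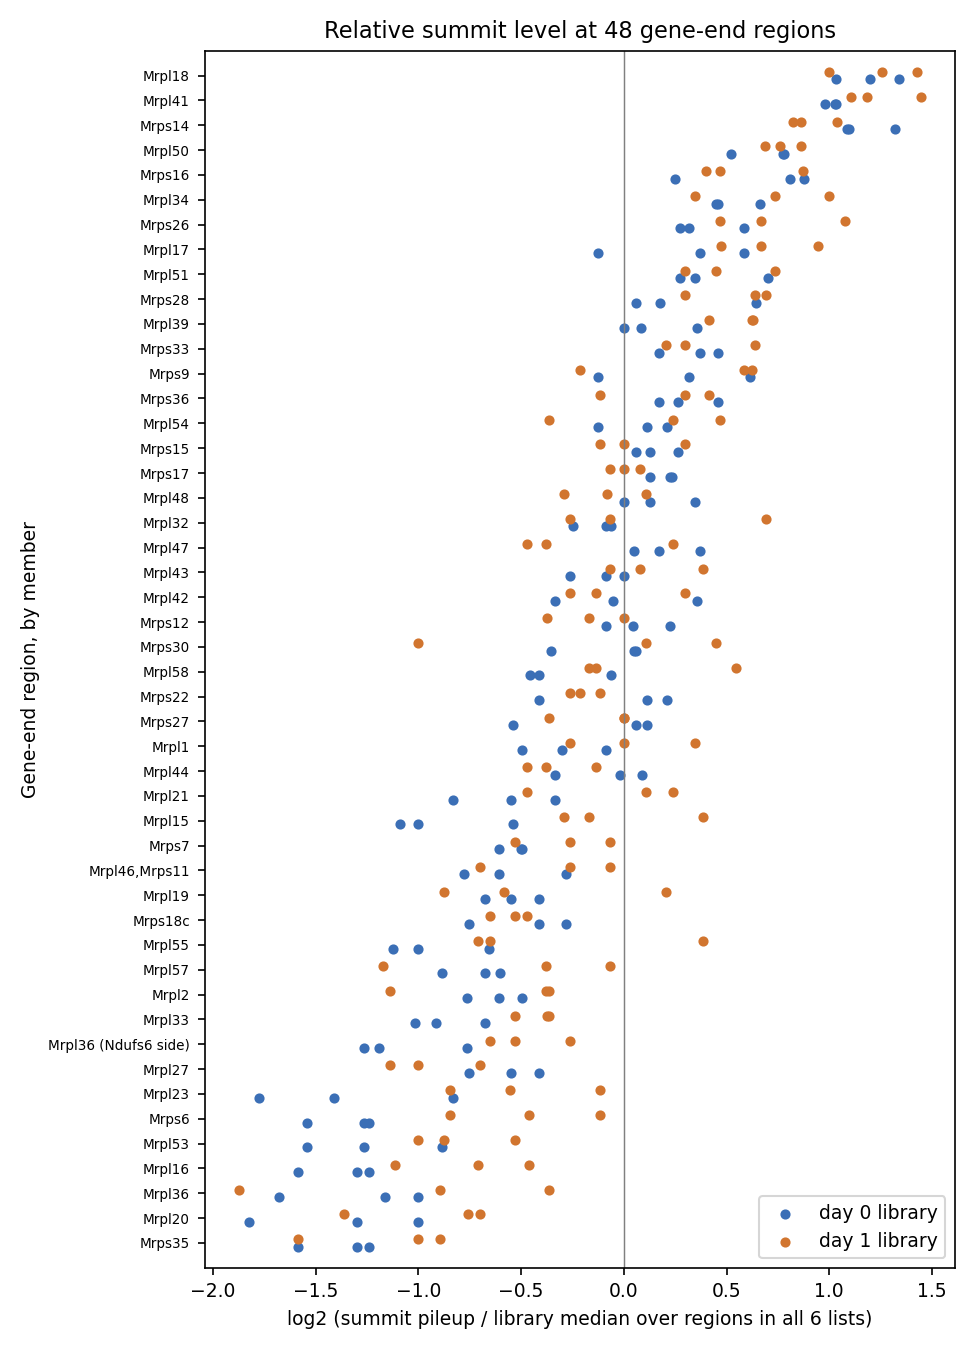
Relative summit level (horizontal axis, log2 of summit pileup over the library median of regions in all 6 lists) of the 48 gene-end regions, ordered by mean level, with 1 point per library coloured by day; Mrpl36 has 2 regions and Mrpl46 and Mrps11 share 1. Mean levels run from 0.422 (Mrps35) to 2.33 (Mrpl18), and in most regions the days overlap.

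Relative levels of the days were then compared with limma over all 9136 shared regions, with Benjamini-Hochberg adjustment over them and a threshold of 0.05. Day 1 was higher in 3 of the 48 regions (6.25%) and lower in 0, beside 7.91% higher and 6.92% lower among all regions, and 4.85% and 1.80% among the 5607 gene-end regions. At an unadjusted p below 0.05 there were 9 of the 48 (18.8%), beside 17.5% of gene-end regions and 26.6% of all regions. The median log2 difference was 0.18 (range -0.40 to 0.87), beside 0.08 for all gene-end regions and 0.06 for all regions, and 33 of 48 (68.8%) were above 0, beside 61.1% of gene-end regions. Every day 1 library exceeded every day 0 library in 7 of the 48, against 16.9% of all regions, and every one lay below in 2, against 12.6%. With pileup per 1000000 fragments in place of the library median, 0 of the 48 passed, but few regions of any kind did: 27 of all 9136 were higher and 52 lower. The median over all regions was then -0.15 and that of the 48 was -0.04, so the sign of the median is relative to the scaling. The order varied as well. With the authors' fold enrichment the median of the 48 was 0.0036, below the 0.043 of all regions. With −log10 q of at least 5 in all 6 libraries it was 0.026 over 36 regions, below 0.050. In the other fits tried, the median of these genes' regions lay above that of all regions.

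The 3 regions that passed were those of Mrps6, Mrpl15 and Mrpl23. At the Mrps6 region, chr16:92057882-92058548, which also holds an end of the inositol transporter gene Slc5a3, levels were 0.424, 0.344 and 0.417 at day 0, then 0.556, 0.727 and 0.923 at day 1. The days did not overlap, and the log2 difference was 0.87 (SE 0.27, adjusted p = 0.0226 in limma). The test was passed no longer under quantile normalisation (adjusted p = 0.0517), without day 0 replicate 2 (0.108) and without day 1 replicate 2 (0.0604).

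Mrpl15, a core protein of the large subunit, had levels of 0.471, 0.688 and 0.500 at day 0 and 0.889, 0.818 and 1.31 at day 1 at chr1:4785307-4786009, with no other coding gene end in the region. The days did not overlap, with a log2 difference of 0.85 (SE 0.25, adjusted p = 0.0133 in limma), which missed the threshold without day 0 replicate 1 (0.0804) or replicate 3 (0.0696). Mrpl23, at chr7:142533073-142533812, had levels of 0.376, 0.562 and 0.292 at day 0 and 0.556, 0.682 and 0.923 at day 1. Here the days overlapped, by 1 library each, and the log2 difference was 0.83 (SE 0.28, adjusted p = 0.0378 in limma). It missed the threshold when centred on gene-end regions (0.0510), under quantile normalisation (0.0875) and in 4 of the 6 fits that left out a library. With the authors' fold enrichment in place of the relative level, none of the 3 passed, at log2 differences of 0.52 for Mrps6, 0.50 for Mrpl15 and 0.44 for Mrpl23 (adjusted p = 0.113, 0.0904 and 0.216 in limma).

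The next largest differences upward were those of Mrpl16 (log2 0.61), the mitochondria-specific Mrpl55 (0.60) and Mrpl36 on the side of Ndufs6 (0.59), with adjusted p of 0.151, 0.135 and 0.131 in limma. At Mrpl16 the levels were 0.424, 0.406 and 0.333 at day 0, then 0.611, 0.727 and 0.462 at day 1, without overlap. The largest differences downward were at Mrpl47 (-0.40), Mrpl27 (-0.37), Mrps14 (-0.26), Mrpl48 (-0.25), Mrps12 (-0.24) and Mrpl44 (-0.24), and none passed. Mrpl47, which sits near the exit of the nascent chain, had levels of 1.04, 1.12 and 1.29 at day 0 and 0.722, 1.18 and 0.769 at day 1, and the days overlapped.

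Regions of Mrpl genes had a median log2 difference of 0.24 (25 of 31 above 0), and those of Mrps genes -0.03 (9 of 18 above 0); the shared region of Mrpl46 and Mrps11 counts in both. For the conserved large-subunit genes the median was 0.37 over 16 regions and for the other Mrpl genes 0.18 over 15. The differences varied with the level of the region. In the lowest of 3 equal classes of level over all regions, the 19 regions had a median of 0.43, and 16 of them (84.2%) were above 0, beside 0.11 and 64.2% for all gene-end regions of that class. In the middle class the median was -0.08, with 6 of 16 regions (37.5%) above 0 beside 56.9% of gene-end regions. In the highest class it was 0.08, with 11 of 13 (84.6%) above 0 beside 62.4%. A weak region enters the comparison only where it was called in all 6 lists, the shortest included, and the part of this selection in the differences of weak regions was not tested. Without day 1 replicate 3, 59 regions entered and 4 were higher and 0 lower, beside 1138 higher and 1145 lower of all 12469 regions in that fit.

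**Figure D4:**
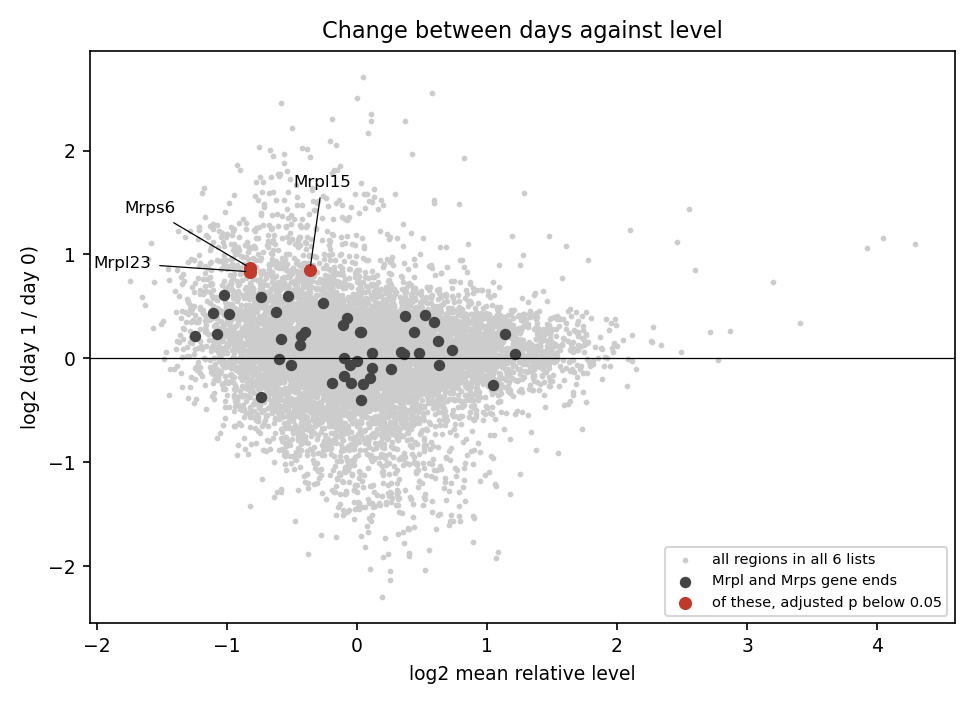
Log2 of day 1 over day 0 relative level (vertical axis) against log2 mean relative level (horizontal axis) for the 9136 regions in all 6 lists (grey), the 48 gene-end regions of mitochondrial ribosomal protein genes (black) and the 3 with an adjusted p below 0.05 (red). The 3 lie among the weaker regions, at log2 differences of 0.83 to 0.87, inside the spread of all regions.

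Promoter sequences are shown first for the genes that rose in the equal lists and the level test, Mrps6 and Mrpl23, and for the strongest regions, Mrpl18, Mrpl41 and Mrps14. Each is the 160 bases upstream of the listed start, 5′ to 3′ on the strand of the gene, from RefSeq on GRCm38.p6, the assembly of mm10. Capitals mark matches to the palindromic NRF1 motif with any base allowed at 1 central position (the NRF1 letters, as in the capitals of Mrpl44), CCGGAAG (GABPA) or AAGATGGC (YY1) on either strand; these 5 hold none, which says only that the letters are not in these windows.
Mrps6 (chr16:92058176-92058335, plus strand): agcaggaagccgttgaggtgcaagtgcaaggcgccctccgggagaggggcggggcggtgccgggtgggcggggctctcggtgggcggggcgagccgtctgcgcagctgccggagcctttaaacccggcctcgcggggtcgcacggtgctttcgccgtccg
Mrpl23 (chr7:142532872-142533031, plus strand): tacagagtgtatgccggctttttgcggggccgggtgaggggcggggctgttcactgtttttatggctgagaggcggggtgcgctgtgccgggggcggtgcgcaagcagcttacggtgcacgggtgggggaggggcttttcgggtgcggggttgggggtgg
Mrpl18 (chr17:12916092-12916251, minus strand): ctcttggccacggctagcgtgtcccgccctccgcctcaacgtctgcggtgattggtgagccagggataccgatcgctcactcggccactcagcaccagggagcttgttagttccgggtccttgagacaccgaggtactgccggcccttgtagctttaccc
Mrpl41 (chr2:24975099-24975258, minus strand): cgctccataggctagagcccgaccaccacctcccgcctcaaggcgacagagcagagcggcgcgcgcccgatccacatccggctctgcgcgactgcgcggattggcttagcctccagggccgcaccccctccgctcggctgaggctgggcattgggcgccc
Mrps14 (chr1:160195055-160195214, plus strand): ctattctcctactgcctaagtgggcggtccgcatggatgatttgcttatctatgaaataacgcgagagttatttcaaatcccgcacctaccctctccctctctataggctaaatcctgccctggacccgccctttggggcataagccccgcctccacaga

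The Mrps6 window lies inside the tested region, whereas the Mrpl23 region begins just downstream of its window. The Mrps6 and Mrpl23 sequences are rich in G and C and hold GGGCGG, the core of SP and KLF factor sites. The Mrps14 and Mrpl18 sequences hold it as well, counting either strand, so these letters do not set Mrps6 and Mrpl23 apart.

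A second set shows promoters with a match. Mrpl27 and Mrpl34 hold the GABPA letters, Mrpl44 the NRF1 letters and Mrps11, whose upstream window is the shared start with Mrpl46 and was chosen after the values were seen, the YY1 letters on the opposite strand.
Mrpl27 (chr11:94653631-94653790, plus strand): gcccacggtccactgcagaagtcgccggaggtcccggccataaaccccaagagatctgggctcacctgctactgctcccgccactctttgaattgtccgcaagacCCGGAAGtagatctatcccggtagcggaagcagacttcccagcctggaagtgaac
Mrpl44 (chr1:79775858-79776017, plus strand): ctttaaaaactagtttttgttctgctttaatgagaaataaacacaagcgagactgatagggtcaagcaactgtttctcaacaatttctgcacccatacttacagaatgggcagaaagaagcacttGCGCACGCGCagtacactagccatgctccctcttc
Mrpl34 (chr8:71464766-71464925, plus strand): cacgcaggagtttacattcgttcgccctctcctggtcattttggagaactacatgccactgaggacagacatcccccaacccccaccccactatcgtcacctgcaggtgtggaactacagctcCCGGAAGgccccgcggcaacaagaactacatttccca
Mrps11 (chr7:78782971-78783130, plus strand): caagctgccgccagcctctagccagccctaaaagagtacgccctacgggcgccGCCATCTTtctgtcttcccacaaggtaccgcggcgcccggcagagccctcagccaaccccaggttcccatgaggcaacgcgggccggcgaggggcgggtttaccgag

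Counted from the listed start, the first matching base lies at -55 in Mrpl27, -35 in Mrpl44, -37 in Mrpl34 and -107 in Mrps11. A match is a description of the sequence and not a measured binding site.

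Such letters were frequent in these promoters. RefSeq windows of 300 bases, from 250 before to 50 after each listed start, were found for 69 of the 78 genes (75 windows) and were set beside all 32851 windows and the 7265 windows open in all 6 lists. CCGGAAG stood in 34.7% of the windows of mitochondrial ribosomal protein genes, in 8.86% of all windows and in 22.0% of open windows. For the longer CCGGAAGT, nested in it, the shares were 16%, 3.89% and 10.3%. The NRF1 letters stood in 17.3%, 4.6% and 12.1%, and their stricter form, with T as the free base, in 4%, 0.971% and 2.38%. AAGATGGC stood in 16%, 2.75% and 5.08%, at a median position 19 bases after the start. Of the windows of these genes, 44 were themselves open in all 6 lists. Among them CCGGAAG stood in 38.6%, the NRF1 letters in 15.9% and AAGATGGC in 15.9%. At least 1 of CCGGAAG, the NRF1 letters and AAGATGGC was present in 43 of 75 windows (57.3%), against 14.7% of all and 34.6% of open windows.

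Over all 75 windows of these genes, other promoter letters differed less from the open windows or were rarer than in them. GGGCGG stood in 52% of the windows, against 35.7% of all and 71.3% of open windows, and CCAAT, the core of NFY sites, in 40%, 37.4% and 43.2%. TATAAA, the TATA box, stood in 6.67%, against 13.6% and 5.30%, and TGACGTCA, the CREB site, in 2.67%, against 1.79% and 3.43%. Among the 44 open windows of these genes GGGCGG stood in 65.9%, nearer to the share of open windows. CCAAT stood in 43.2% of the 44, TATAAA in 9.09% (4 windows, against 5.30% of open windows) and TGACGTCA in 2.27%. All motifs were searched on both strands. Median GC content was 58.7% for these genes, 52.7% for all windows and 62.3% for open windows. The 19 regions with CCGGAAG had a median level of 0.967 and the 23 without it 0.966. For the NRF1 letters the medians were 1.27 in 7 regions with a match and 0.950 in 35 without, and for AAGATGGC 0.932 in 7 and 1.02 in 35. With GGGCGG the median was 1.02 in 25 regions and without it 0.874 in 17, and with CCAAT it was 1.05 in 20 and without it 0.930 in 22. These are descriptions with no test.

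Distal peaks were counted next. With one of these genes as the nearest there were 74, 59 and 46 distal peaks in the day 0 lists and 28, 37 and 15 in the day 1 lists, or 59.7 ± 14 and 26.7 ± 11.1 (SD, n = 3 each). The days did not overlap, but distal peaks as a whole fell more: the share nearest to these genes was 0.205% ± 0.0177 at day 0 and 0.279% ± 0.0135 at day 1 (SD, n = 3 each). Cut to equal length, day 0 lists held 9, 12 and 12 such peaks and day 1 lists 15, 16 and 15, in the opposite direction and again without overlap. As a share of all distal peaks in the equal lists this was 0.175% ± 0.0259 and 0.281% ± 0.0176 (SD, n = 3 each), while all distal peaks numbered 6182 to 6404 at day 0 and 5326 to 5627 at day 1.

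Of the 259 such peaks in the deposited lists, near 33 genes, 9 fell in merged regions that also hold a gene-end peak, and these included all those of Mrpl36 and Mrpl58. The others made 99 regions near 31 of the genes, of which 35 were called in 1 library, 11 in all 6, 15 in every day 0 and no day 1 library (20.2% of all regions away from gene ends) and 1 the reverse (0.707%). In equal lists 1 of 29 distal regions was day 0 only (13.5% of all) and 3 were day 1 only (6.33%). By contrast, of the 88 gene-end regions of these genes in the deposited lists, 0 were day 0 only and 0 day 1 only, against 6.01% and 0.170% of all gene-end regions.

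Mrpl39, a mitochondria-specific large-subunit protein, had the most distal peaks, 10, 9 and 5 at day 0 and 4, 3 and 1 at day 1. Among its regions, chr16:84626907-84627433, 91.0 kb from the gene, was called in every day 0 list, with the authors' fold enrichment at 13.6, 13.4 and 10.1, and in no day 1 list. In the equal lists it was day 0 only as well. Another, chr16:84653966-84654362, was called in all 6, with fold enrichments of 9.09, 6.96 and 6.53 at day 0 and 10.1, 13.2 and 6.77 at day 1.

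Mrps27, a pentatricopeptide repeat protein of the small subunit, had 8, 5 and 4 distal peaks at day 0 and 2 in each day 1 list, and both day 1 sites lie inside the gene. At chr13:99352911-99353612 the fold enrichment was 17.0, 17.6 and 14.5 at day 0 and 14.2, 14.8 and 12.5 at day 1, and at chr13:99391415-99392001 it was 15.6, 12.6 and 9.84 and then 6.72, 6.48 and 4.31. Mrpl44, which has a ribonuclease III fold, had 5, 3 and 3 and then 3, 2 and 2 distal peaks. Its strongest, chr1:79745918-79746553, had fold enrichments of 21.1, 17.7 and 20.9 at day 0 and 18.1, 16.1 and 9.07 at day 1. Fold enrichment varies with depth, so the values of these distal sites describe each list and were not tested between days.

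Mrpl45, which tethers the mitoribosome to the inner membrane, had 3, 3 and 5 distal peaks at day 0 and 3, 4 and 2 at day 1, and the days overlapped. Mrps28 had 6, 3 and 2 and then 2, 2 and 1, Mrps6 5, 3 and 3 and then 2, 1 and 1, and Mrps22 4, 3 and 2 and then 0, 3 and 1. Mrpl46 had 2, 3 and 2 and then 1 in each day 1 list. All 3 of those day 1 peaks fell in a single region, chr7:78739281-78739940, 35.7 kb from the gene, which had no peak in any day 0 list. Its fold enrichments were 8.90, 7.01 and 7.25, and it was the 1 day 1 only region of the deposited lists. The nearest gene need not be the gene that a distal site acts on.

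**Figure D5:**
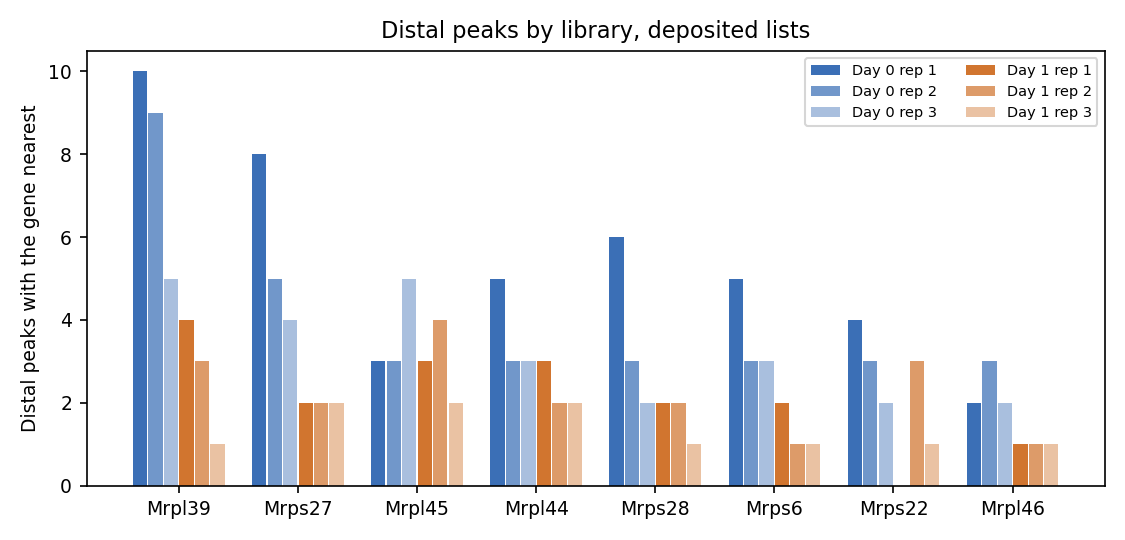
Number of distal peaks (vertical axis) in each of the 6 deposited lists for the 8 mitochondrial ribosomal protein genes with the most, coloured by day. Mrpl39 falls from 10, 9 and 5 to 4, 3 and 1, whereas Mrpl45 stays between 2 and 5 on both days.

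Other genes of mitochondrial translation were read in the same way, from 69 genes for mitoribosome assembly, translation factors, aminoacyl-tRNA synthetases, mitochondrial DNA expression and mitoribosomal proteins with other names. Of these, 62, 62 and 60 had a gene-end peak in the deposited lists at day 0 and 54, 60 and 46 at day 1. In equal lists there were 39, 36 and 34 and then 45, 42 and 46, and the days did not overlap. The mean share in equal lists went from 52.7% to 64.3%, beside 26.6% to 32.4% of all coding genes. Among their 44 regions in all 6 lists 2 were higher and 0 lower at day 1, a count near the share over all gene-end regions. That share was 4.85% higher and 1.80% lower, and over all regions it was 7.91% and 6.92%. The median log2 difference of the 44 was 0.17, beside 0.18 for the mitochondrial ribosomal protein genes. The 2 were Mtg1, a GTPase of mitoribosome assembly (log2 0.72, SE 0.24, adjusted p = 0.0369 in limma), and Lars2, the mitochondrial leucyl-tRNA synthetase (0.73, SE 0.16, adjusted p = 0.00227 in limma). The Lars2 region, chr9:123461798-123462187, had extreme levels of 5.6, 8.31 and 6.71 at day 0 and 9.67, 9.77 and 15.2 at day 1. Its mean level, 9.20, was the highest among all 5607 gene-end regions. Whether so high a signal marks an open promoter of Lars2 was not tested.

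The 5 mitoribosomal proteins with other names (Dap3, Ptcd3, Chchd1, Aurkaip1 and Gadd45gip1) were in the equal lists 1, 0 and 0 times at day 0 and 3 times in each day 1 list. Of the 17 aminoacyl-tRNA synthetases, which charge tRNAs for the mitoribosome, 13, 12 and 12 were present at day 0 and 12 in each day 1 list. Of the 23 assembly genes there were 13, 12 and 11 and then 16, 13 and 15.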

How the data were processed

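ATAC-seq peak lists of 6 libraries, 3 per day, were used. The submitters' processing notes name Bowtie2 2.4.4 and the mm10 build. Per the file headers, MACS2 2.2.7.1 was run on each library by itself, on paired-end fragments, with a q cutoff of 0.05, no control library and a local background over 10000 bp. In that mode the deposited pileup signal counts whole fragments over the summit, so it does not mark transposase cut sites and is not scaled to depth. The deposited fold enrichment is a ratio, summit pileup over local background, and the deposited −log10 p and −log10 q values come from the same comparison, per the file headers. These were the authors' own values per peak. A deposited length column gives peak width in bp.

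Gene ends came from RefSeq GRCm38.p6, which lists no strand for these genes, so either end was used, and strand and starts came from the RefSeq promoter table, which held 69 of the 78 genes. A peak near 2 genes counted for both. Overlapping peaks of any library (1 bp or more) were joined to regions. Log2 relative levels were tested with limma 3.58.1 (R 4.3.3, trend and robust) over the 9136 regions in all 6 lists, and a region missing from 1 or more lists did not enter. Counts of genes carry no p. On simulated data of these 9136 regions, the test recovered 40% of regions changed 2-fold and 97% of those changed 3-fold, with 3 false among 8936. The simulated counts had the same dispersion setting in every library and no peak cutoff, so these rates need not hold for the deposited lists. Counting of peaks and motifs used Python 3.11.15 and pandas 2.3.3. Day 1 libraries had fewer fragments and shorter lists than day 0 libraries, but the shortest list was not that of the shallowest library, and the part of depth in list length was not tested.

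The genes and gene lists were chosen with earlier results of these data known. The named genes are the 6 strongest and 6 weakest regions, the 15 genes with the fewest deposited peaks, the 6 largest changes in each direction, the 8 with the most distal peaks, promoters of up to 8 of the strongest and most changed genes, and related genes that passed. Replicate numbers were not used to pair the days. Alternatives tried were other distances, edges instead of summits, stricter and shorter lists, other rankings and scalings, leaving out each library and a replicate block.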

Additional observations from a re-analysis of the deposited data

How the results depend on the processing

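The fall in genes with a gene-end peak in the deposited lists (-9.67 of 78 genes, day 1 minus day 0) kept its direction with the distance set to 500 bp (-9.33) or 2 kb (-10.7), with peak edges in place of summits (-9.33), at −log10 q of 5 or more (-15.3) and without any 1 library (-13.2 to -4.67, the smallest without day 1 replicate 3). The rise in equal lists (13.7 genes) was 10 with peaks at −log10 q of 5 or more, 9 with lists shortened to 6278 peaks, and 12 to 14.7 without any 1 library. Lists of 20069 peaks without day 1 replicate 3, chosen after seeing the data, gave 12.7. The fall in distal peaks (-33 per library) reversed in equal lists (4.33) and was -39.8 to -25.8 without any 1 library. Day 0 only regions of these genes, gene-end and distal together, numbered 15, 1 in equal lists, and 15 to 29 without any 1 library (29 without day 0 replicate 3, 24 without day 1 replicate 2). Day 1 only regions, counted the same way, numbered 1, 7 in equal lists, and 1 to 4 without any 1 library (4 without day 1 replicate 3, 2 without day 1 replicate 1). Both classes ask for every library of a day and none of the other. Leaving out a library loosens that rule, so these ranges do not measure how stable the counts are. The 3 regions higher by limma became 0 with pileup per 1000000 fragments, 0 with fold enrichment, 1 with quantile normalisation, and 1 to 4 without any 1 library (1 without day 0 replicate 1, day 0 replicate 3 or day 1 replicate 2); 0 were lower in each of these fits. Over all 9136 regions the number higher was 723 in the main fit, 27 per 1000000 fragments, 378 with fold enrichment and 558 with quantile normalisation. The cause of these changes was not tested. Same-numbered libraries of the days did not deviate together (correlations of -0.04, 0.05 and 0.01 over regions), and differently numbered ones gave -0.07 to 0.06. With 3 libraries per day, measured from their own mean, these values cannot exclude that a number marks a shared culture or batch. A replicate block left the count at 3. Day 1 lists are shorter, and a region below a list's cutoff has no value.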
